A study of Mus musculus and Rattus norvegicus with 36 samples.

Results

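The cytochrome P450 genes measured on the arrays are described here across diets, tissues and species. They were taken as every gene whose symbol starts with Cyp followed by a digit, and each was read from 1 probe set, that of the largest average signal in the tissue. On the mouse array 73 of 18193 genes with a single symbol met the rule, and on the rat array 58 of 14217, or 131 of 32410 genes in all. No filter on low values was used, so that all 73 and all 58 were tested. Probe sets that carried several P450 symbols, 4 in mouse and 7 in rat, were left out.

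Selenium (Se) is an essential trace element that acts through selenoproteins, and the study asked how transcript levels respond to diets from deficient to toxic Se. Each array held liver or kidney RNA of 1 animal, with 3 animals per diet and 36 arrays in all. Male mice of a mainly C57 black background were fed for 35 days a Se-deficient torula yeast diet, or the same diet with selenite added at 0.05 μg Se/g or at 0.2 μg Se/g, and liver and kidney were profiled. Male weanling Holtzman rats were fed for 28 days a torula yeast diet with vitamin E and methionine, and only liver was profiled. Rat study 1 compared 0.08 with 0.8 μg Se/g, and rat study 2 compared the Se-deficient diet with 0.24, 2 and 5 μg Se/g. All groups, the adequate ones included, received the same yeast-based basal diet, and the rats on 5 μg Se/g grew less than the others per the study. Se-adequate refers below to 0.2 μg Se/g in mice and 0.24 μg Se/g in rat study 2.

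Cytochrome P450 enzymes are heme proteins that insert 1 oxygen atom into their substrates, with electrons passed on by redox partners such as P450 oxidoreductase and adrenodoxin. Families 1 to 3 mainly oxidize drugs, toxins and other foreign compounds in the liver, where their transcription is controlled by receptors that sense such compounds, by bile acid and hormone signals, and by hepatocyte factors. Family 4 hydroxylates fatty acids, and other members make or break down cholesterol, bile acids, steroid hormones, vitamin D and retinoic acid.

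The promoters of 52 of the 73 mouse genes were found in RefSeq (build GRCm38.p6), as 59 windows of 250 bases before and 50 after a transcription start, and were searched on both strands for 5 motifs. Some genes had several windows, and those of Cyp2j13, Cyp3a25 and Cyp4f14 overlapped, so that windows are not all separate promoters. The liver-factor motif CAAAGTCCA, a binding motif of hepatocyte nuclear factor 4, was in 6 of the 59 windows (10.2%) against 0.475% of all 32851 RefSeq windows. TATAAA was in 21 windows (35.6%) against 13.6%, GTTAAT, part of the HNF1 element, in 3 (5.08%) against 7.1%, and GCGTG, the core of the aryl hydrocarbon receptor element, in 15 (25.4%) against 32.4%. The letters AGTTCA repeated after 5 bases, an element of retinoic acid receptors, was in 1 window (1.69%), that of Cyp26a1, against 0.0244% of all. The windows of the motifs in Cyp26a1 and Cyp1a2, which changed in rats, and of 4 liver genes with CAAAGTCCA are shown as the 250 bases before the start, 5′ to 3′ on the strand of the gene, with the motif in capitals. They are mouse sequences, while the diet changes below are of the rat genes. The first is Cyp26a1 (chr19:37697558-37697807, plus strand), whose repeat began 32 bases before the start.
Cyp26a1: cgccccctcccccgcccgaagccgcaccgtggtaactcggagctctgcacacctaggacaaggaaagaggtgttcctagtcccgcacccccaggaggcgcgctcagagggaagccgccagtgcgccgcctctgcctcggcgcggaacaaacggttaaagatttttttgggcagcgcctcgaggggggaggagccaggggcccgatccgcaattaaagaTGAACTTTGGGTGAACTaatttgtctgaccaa
The window of Cyp1a2 (chr9:57683656-57683905, minus strand) held TATAAA from 29 bases before the start.
Cyp1a2: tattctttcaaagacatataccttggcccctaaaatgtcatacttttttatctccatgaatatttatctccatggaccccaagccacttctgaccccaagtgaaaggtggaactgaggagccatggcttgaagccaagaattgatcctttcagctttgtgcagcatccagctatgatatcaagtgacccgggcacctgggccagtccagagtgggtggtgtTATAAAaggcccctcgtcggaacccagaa
The motif CAAAGTCCA, on either strand, lay from 109 bases before the start in Cyp3a11 (chr5:145879855-145880104, minus strand), from 67 in Cyp8b1 (chr9:121916306-121916555, minus strand), from 64 in Cyp2c70 (chr19:40187287-40187536, minus strand) and from 77 in Cyp2c68 (chr19:39741102-39741351, minus strand).
Cyp3a11: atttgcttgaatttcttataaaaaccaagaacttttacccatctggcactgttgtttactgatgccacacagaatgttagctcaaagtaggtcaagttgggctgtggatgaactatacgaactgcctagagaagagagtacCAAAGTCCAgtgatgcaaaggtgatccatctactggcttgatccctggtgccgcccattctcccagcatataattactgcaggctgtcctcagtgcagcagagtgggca
Cyp8b1: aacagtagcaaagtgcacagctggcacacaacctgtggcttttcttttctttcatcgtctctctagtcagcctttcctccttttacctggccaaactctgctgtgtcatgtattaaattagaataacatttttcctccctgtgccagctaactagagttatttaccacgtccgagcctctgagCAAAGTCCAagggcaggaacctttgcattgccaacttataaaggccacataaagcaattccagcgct
Cyp2c70: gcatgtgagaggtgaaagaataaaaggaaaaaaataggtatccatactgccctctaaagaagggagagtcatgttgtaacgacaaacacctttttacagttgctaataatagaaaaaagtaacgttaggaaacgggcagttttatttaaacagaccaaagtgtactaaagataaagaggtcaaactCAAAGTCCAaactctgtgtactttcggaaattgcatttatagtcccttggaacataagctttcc
Cyp2c68: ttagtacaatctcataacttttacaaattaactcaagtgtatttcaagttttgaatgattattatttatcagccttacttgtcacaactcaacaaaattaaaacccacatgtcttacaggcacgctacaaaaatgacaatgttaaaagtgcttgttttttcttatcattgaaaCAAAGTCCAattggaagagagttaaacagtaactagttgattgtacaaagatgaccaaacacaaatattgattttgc
These 4 genes were picked from those higher in mouse liver than in mouse kidney, as given below. Among windows of liver-higher genes 4 of 33 (12.1%) held CAAAGTCCA, and among windows of genes higher in neither tissue 2 of 20 (10%).

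The labelled tissues carried their own markers. Over the arrays, albumin was at log2 14.76 to 14.90 in mouse liver and 7.96 to 10.56 in kidney, and the sodium phosphate transporter gene Slc34a1 at 13.05 to 13.73 in kidney and 5.29 to 5.70 in liver. Gpx1, the selenoprotein gene used as the check of the diets, was at 12.98 in Se-deficient and 14.13 in Se-adequate mouse liver, and at 12.26 and 14.12 in rat liver. Arrays of 1 diet correlated at r = 0.972 to 0.997. One array stood apart, replicate 1 at 2 μg Se/g in rats, which had 1964 probe sets more than 2-fold from the Se-adequate mean, against 136 and 147 for the other 2 arrays of that diet, but only 1 P450 gene.

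Many P450 genes had bright signals. Signals of different probe sets are not amounts of mRNA that can be set against each other, so that levels are given per gene and by counts. In mouse liver, 54 of 73 genes (74%) were above the median of all probe sets, and 9 (12.3%) had a mean over log2 13, against 0.533% of all probe sets. In rat liver, 43 of 58 (74.1%) were above the median and 14 (24.1%) were over 13, against 0.902% of all. In mouse kidney, the counts were 42 (57.5%) and 3 (4.11%), against 0.333% of all probe sets over 13. Within a diet, the median SD of the P450 genes was 0.151 in mouse liver, 0.134 in mouse kidney and 0.181 in rat liver, and that of all probe sets 0.119, 0.118 and 0.167. For the genes over 13 the median SDs were 0.0784, 0.0691 and 0.0873, and whether signals this bright were compressed near the top of the range of the arrays was not tested.

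By role, in mouse liver the means over 9 arrays were 13.79 for Cyp2c50 and 13.58 for Cyp2c29 of the CYP2C genes, 13.46 for Cyp2d9 and 13.09 for Cyp2d10 of the CYP2D genes, and 14.12 for Cyp3a11 and 13.29 for Cyp3a25 of the CYP3 family. Cyp2e1, which oxidizes ethanol and small solvents, was at 14.13, and Cyp2f2 at 13.42. Cyp1a2, which oxidizes caffeine and arylamines, was at 12.45, while its relative Cyp1a1 was at 7.16. Cyp2a12 was at 12.85 and Cyp2b10, a target of the constitutive androstane receptor, at 10.64. Of the fatty acid hydroxylases, Cyp4a12a was at 12.91 and Cyp4a14 at 11.90. All 6 bile acid and cholesterol breakdown genes were above the median of all probe sets, with Cyp8b1, the sterol 12-hydroxylase, at 13.03 and Cyp27a1 at 11.81. Of the steroid hormone genes, Cyp17a1 was at 8.80 and Cyp21a1 at 6.81. The vitamin D 25-hydroxylase gene Cyp2r1 was at 8.47 and the retinoic acid hydroxylase gene Cyp26a1 at 8.46. Cyp51, the lanosterol demethylase of cholesterol synthesis, was at 9.77.

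Rat liver had a similar spread of roles. All 7 CYP2C genes were above the median of all probe sets, with Cyp2c7 at 14.13 and Cyp2c11, the male-predominant steroid hydroxylase of rat liver, at 14.00. Cyp2e1 was at 14.07, Cyp2d2 at 13.98, Cyp3a2 at 13.75, Cyp2b3 at 13.72, Cyp4f1 at 13.16 and Cyp1a2 at 12.88. Cyp27a1 was at 12.66, Cyp51 at 11.92, Cyp17a1 at 9.28 and Cyp26b1 at 8.05. Some rat genes varied widely between animals on the same diet. Cyp2c12 ranged from 10.14 to 12.59 on 0.24 μg Se/g and from 10.02 to 12.79 on 2 μg Se/g. Cyp7a1, the rate-limiting enzyme of bile acid synthesis, ranged from 7.29 to 9.47 among the 3 Se-deficient rats.

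In mice, more P450 genes were higher in liver than in kidney. The tissues were normalized separately, so no test was made, and a gene was counted when the 9 liver and 9 kidney arrays did not overlap and the means differed by more than 2-fold. For this comparison each gene was read in both tissues from the same probe set, that of the largest average signal over all 18 mouse arrays, which for 68 of 73 genes was also the one used for liver and for 72 the one used for kidney. By this count 37 of 73 genes (50.7%) were higher in liver, against 6.02% of all probe sets, and 8 (11%) were higher in kidney, against 8.07%. The median difference, liver minus kidney, was 1.05 on the log2 scale, against -0.06 over all probe sets.

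**Figure D1:**
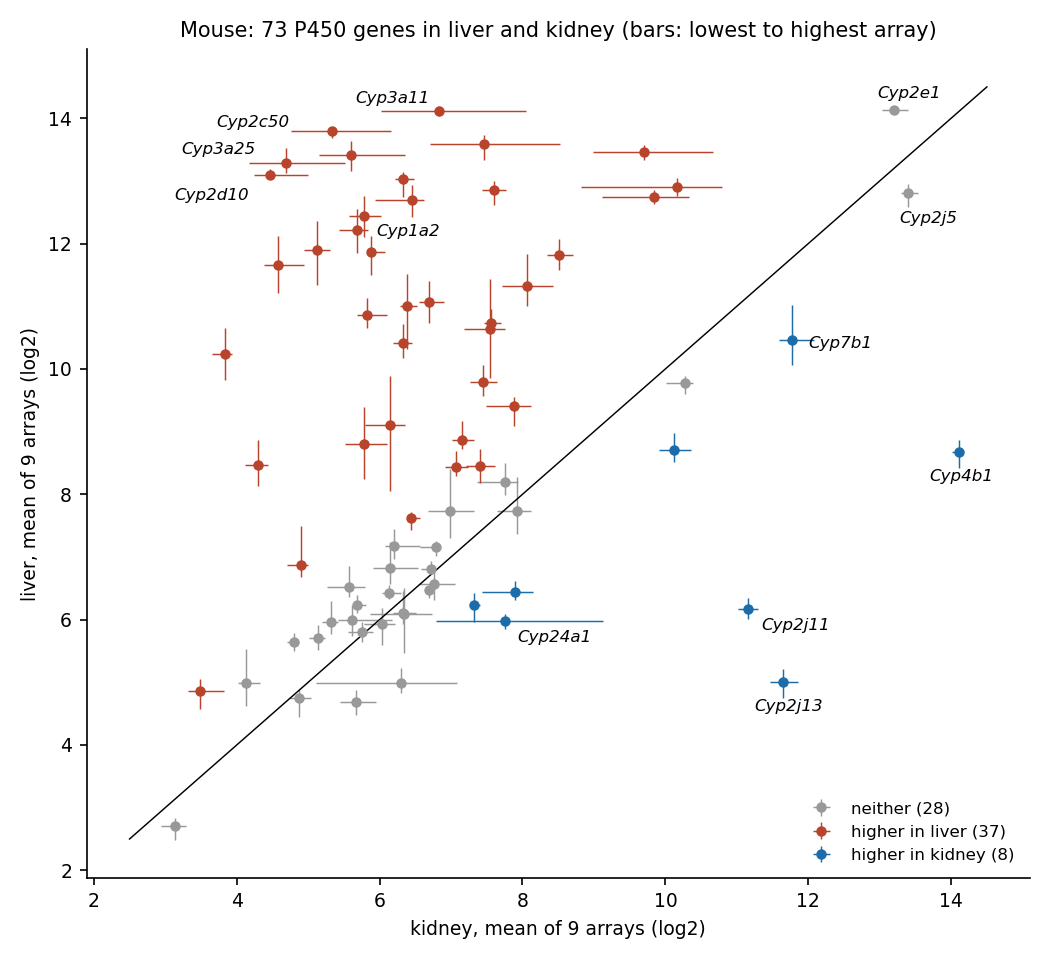
Mean log2 expression of 73 P450 genes in mouse kidney (x axis) and liver (y axis), over 9 arrays each, with bars from the lowest to the highest array and a line of equal values. The 37 red points, higher in liver, reach Cyp2d10 at 13.09 in liver and 4.47 in kidney, and the 8 blue points, higher in kidney, reach Cyp2j13 at 5.00 and 11.65.

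Of the CYP2C genes 10 of 11, of the CYP3 family 4 of 5, and of the CYP2D genes 5 of 8 were higher in liver. The liver arrays of Cyp2d10 lay from 13.05 to 13.19 and its kidney arrays from 4.24 to 5.00, a difference of 8.62. Cyp3a25 differed by 8.60, Cyp2c50 by 8.45 and Cyp3a11 by 7.29. Kidney signals as dim as these have no detection call here, so that the sizes of such differences are descriptions of the signal and set no order among the genes. The liver arrays of Cyp1a2 lay from 12.10 to 12.76 and its kidney arrays from 5.57 to 6.02, a difference of 6.67. The liver genes with CAAAGTCCA in the windows above differed by 7.29 for Cyp3a11, 6.70 for Cyp8b1, 6.54 for Cyp2c70 and 5.99 for Cyp2c68. The motif was also in the windows of Cyp2c65 and Cyp3a16, which were counted in neither tissue.

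The 8 genes higher in kidney were a share near that of all probe sets. Cyp2j13 and Cyp2j11, of a subfamily that epoxidizes fatty acids, were at 11.65 and 11.16 in kidney and at 5.00 and 6.18 in liver. Cyp4b1, of the fatty acid hydroxylase family, ranged from 14.02 to 14.14 in kidney and from 8.41 to 8.86 in liver. Cyp24a1, the vitamin D 24-hydroxylase of the proximal tubule, ranged from 6.78 to 9.13 in kidney and from 5.85 to 6.09 in liver. That is the probe set shared by both tissues, and the one brightest in kidney ranged from 7.64 to 10.38 there. The other 4 were Cyp1b1, Cyp4a31, Cyp7b1 and Cyp2s1, with differences of -1.47, -1.42, -1.31 and -1.08. In liver Cyp7b1, at 10.46, Cyp4a31, at 8.71, and Cyp4b1, at 8.67, were also above the median of all probe sets. Cyp2e1 and Cyp2j5 were bright in both tissues, at 14.13 and 12.80 in liver and at 13.20 and 13.39 in kidney. Of the 6 windows of kidney-higher genes, among them the overlapping ones of Cyp2j13, 0 held CAAAGTCCA and 0 held TATAAA.

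No P450 gene of the mice passed the test for Se status. Calls were made by limma at a Benjamini-Hochberg adjusted p under 0.05 over all probe sets. In Se-deficient against Se-adequate liver, 0 of 73 genes were called, against 0.0222% of all 45037 probe sets, and 8 genes (11%) had an unadjusted p under 0.05, against 4.63%. For 8 genes (11%) the 3 livers of each diet did not overlap, against 7.61%, with 1 higher and 7 lower. The median change was -0.02 for the P450 genes and -0.02 for all probe sets, and the changes ran from -0.93 to 0.57. With the replicate number as a block, limma called 1 gene, Cyp2b10. Deviations from the group means of same-numbered livers correlated at r = 0.462, 0.105 and 0.319, but number 2 correlated best with number 3. With all 18 mouse arrays in 1 fit, limma called 1 other gene, Cyp2c55. With 3 animals per diet, an exact permutation test of 1 gene cannot give a two-sided p below 0.1.

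Cyp2c55, a CYP2C gene, was at 10.32, 10.52 and 10.77 in the Se-deficient livers, 11.22, 11.13 and 11.14 at 0.05 μg Se/g, and 11.51, 11.13 and 11.31 in the Se-adequate livers. Every Se-deficient liver was below every other liver. The difference from Se-adequate was -0.78 (SE 0.12, limma adjusted p = 0.16). Cyp2c65, a close relative of low signal, was at 4.63, 4.70 and 4.71 in the Se-deficient and 4.99, 5.16 and 5.14 in the Se-adequate livers, a difference of -0.41 (SE 0.13, limma adjusted p = 0.93). Of the 11 CYP2C genes, 10 had a negative difference, with a median of -0.08, against -0.02 for all probe sets. Of all 73 P450 genes, 42 had a negative difference, and their median SE was 0.11, so that many of these differences were smaller than their SE.

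Among the bile acid genes, Cyp7b1, the oxysterol 7-hydroxylase, was at 11.02, 10.45 and 10.77 in the Se-deficient livers and 10.26, 10.21 and 10.06 in the Se-adequate livers. The groups did not overlap, and the difference was 0.57 (SE 0.16, limma adjusted p = 0.93). Cyp7a1 was at 9.12, 8.97 and 8.05 in the Se-deficient livers and 9.89, 9.53 and 9.51 in the Se-adequate livers, again without overlap but in the other direction, by -0.93 (SE 0.29, limma adjusted p = 0.93). Cyp2b10 was at 10.49, 10.43 and 9.85 against 11.40, 11.33 and 10.44, a difference of -0.80 (SE 0.27, limma adjusted p = 0.93). Here the lowest Se-adequate liver, replicate 3, was within the Se-deficient range, and replicate 3 was the lowest of both groups. Cyp1a2 was at 12.50 ± 0.07 in Se-deficient and 12.40 ± 0.24 in Se-adequate livers (SD, n = 3), a difference of 0.10 (SE 0.16).

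**Figure D2:**
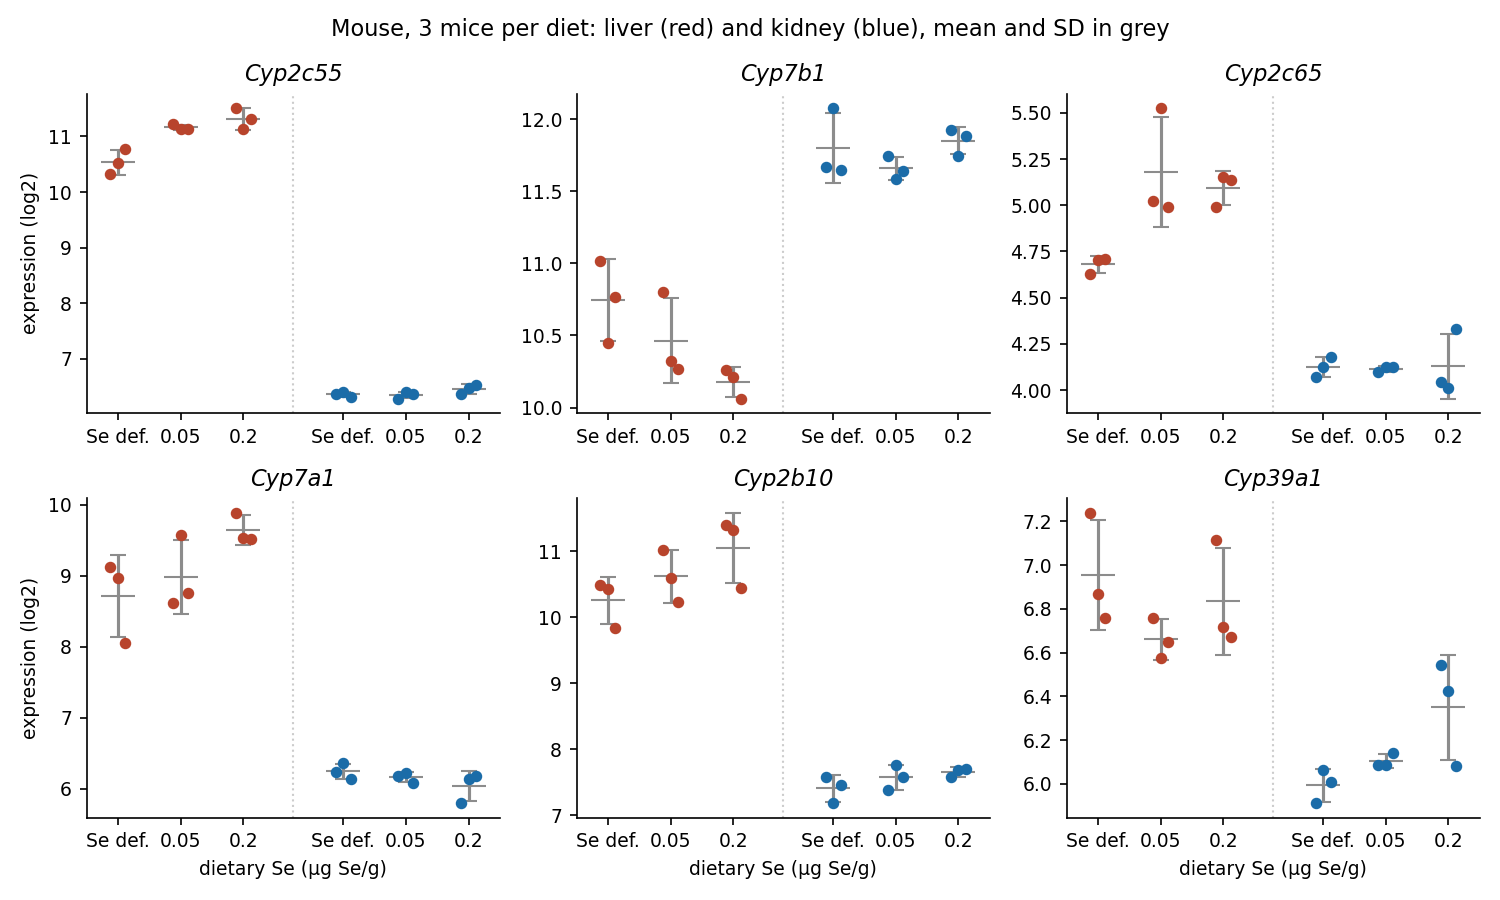
Log2 expression of 6 P450 genes in each mouse by dietary Se, in liver (red) and kidney (blue), with the mean and SD of the 3 mice in grey. The Se-deficient livers lie below the Se-adequate livers for Cyp2c55, Cyp2c65 and Cyp7a1 and above them for Cyp7b1. Cyp2c55 in kidney lies between 6.28 and 6.53 on all diets, near the median of all kidney probe sets (6.27).

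At 0.05 against 0.2 μg Se/g in liver, limma called 0 of 73 genes, against 0% of all probe sets, with 3 genes (4.11%) at an unadjusted p under 0.05 against 1.95%, and 5 (6.85%) without overlap against 5.46%. The 3 with the smallest p were Cyp4a14, with a difference of -0.53 (SE 0.20), Cyp7a1, with -0.66 (SE 0.29), and Cyp17a1, the steroid 17-hydroxylase, with -0.50 (SE 0.23). The 2 diets overlapped for all of them, with Cyp4a14 at 11.42, 12.11 and 11.34 against 11.87, 12.21 and 12.36. This comparison used the same Se-adequate livers as the one above.

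In kidney, Se-deficient against Se-adequate, limma called 0 of 73 genes, against 0.00666% of all probe sets, with 5 genes (6.85%) at an unadjusted p under 0.05 against 5.42%, and 5 (6.85%) without overlap against 8.66%. Cyp39a1, an oxysterol hydroxylase, was at 5.91, 6.06 and 6.01 in Se-deficient and 6.54, 6.42 and 6.08 in Se-adequate kidneys, a difference of -0.36 (SE 0.11, limma adjusted p = 0.89). Cyp2e1 was at 13.33, 13.26 and 13.40 against 13.05, 13.04 and 13.19, a difference of 0.24 (SE 0.08, limma adjusted p = 0.89). The groups did not overlap for either gene. Cyp2d40 differed by 0.27 (SE 0.09). At 0.05 against 0.2 μg Se/g, 0 genes were called, against 0%, and 2 genes (2.74%) had an unadjusted p under 0.05, against 2.91%, and 2 (2.74%) did not overlap, against 6.48%. The smallest p values were those of Cyp2c37 (-0.35, SE 0.09), Cyp39a1 (-0.24, SE 0.11) and Cyp2c50 (-0.51, SE 0.24). Many P450 genes had the same deposited value on 2 or more arrays of a tissue, equal to 6 significant digits. This held for 44 of 73 genes in kidney, 29 in mouse liver and 4 of 58 in rat liver. Cyp4f39 was listed at 5.67 on all 6 Se-deficient and Se-adequate kidney arrays, so that its difference was 0.

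Whether liver and kidney responded differently to Se deficiency was tested as the difference of the responses, with 1 probe set per gene as in the comparison of the tissues. Per the study both tissues came from 3 mice per diet, but the labels do not tie a liver to a kidney, so that the fit took the 18 arrays as independent. limma called 0 of 73 genes, against 0.00222% of all probe sets, with 8 genes (11%) at an unadjusted p under 0.05 against 5.79%. Cyp2c55 changed by -0.78 in liver and -0.09 in kidney, a difference of -0.68 (SE 0.15, limma adjusted p = 0.77). For Cyp7a1 the difference of responses was -1.13 (SE 0.34) and for Cyp7b1 0.62 (SE 0.21), both with a limma adjusted p of 0.83. In kidney Cyp2c55 averaged 6.39 and Cyp7a1 6.15, near the median of all probe sets (6.27), and Cyp7b1 11.77. Whether the first 2 were above background in kidney is not known here, so a small change there may reflect low signal.

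In rat liver, neither Se deficiency nor intakes up to 2 μg Se/g gave a called P450 gene. In Se-deficient against Se-adequate rats limma called 0 of 58 genes, against 0.00322% of all 31042 probe sets, with 1 gene (1.72%) at an unadjusted p under 0.05 against 3.4%, and 4 (6.9%) without overlap against 11.6%. The gene with the smallest p was Cyp26a1, which clears retinoic acid, at 7.30, 7.14 and 6.75 in Se-deficient and 6.57, 6.13 and 6.22 in Se-adequate rats. The groups did not overlap, and the difference was 0.75 (SE 0.18, limma adjusted p = 0.9994). Its relative Cyp26b1 differed by 0.65 (SE 0.30) and Cyp2c12 by 1.15 (SE 0.66), both with overlapping groups.

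At 2 against 0.24 μg Se/g, limma called 0 of 58 genes, against 0.00322%, with 3 (5.17%) at an unadjusted p under 0.05 against 15.3%, and 4 (6.9%) without overlap against 12.8%. Cyp2f4 was at 10.68, 10.92 and 11.11 on 2 μg Se/g and 11.23, 11.18 and 11.15 on 0.24 μg Se/g, a difference of -0.28 (SE 0.11, limma adjusted p = 0.32). Cyp4f6 was at 10.44, 11.02 and 11.25 against 11.32, 11.43 and 11.36, a difference of -0.47 (SE 0.19, limma adjusted p = 0.32). The groups did not overlap for either, and in both the lowest value was that of replicate 1, the array that stood apart. Without replicate 3 at 2 μg Se/g, limma called 3 genes, Cyp2f4, Cyp4f6 and Cyp4v3, or 5.17%, against 18.7% of all probe sets. At 0.8 against 0.08 μg Se/g, in the other study, limma called 0 of 58 genes, against 0%, with 2 (3.45%) at an unadjusted p under 0.05 against 4.58%, and 4 (6.9%) without overlap against 9.46%. The 2 with the smallest p were Cyp17a1, at 9.57 ± 0.28 against 10.21 ± 0.12 (SD, n = 3), and Cyp7a1, at 8.89 ± 0.69 against 10.20 ± 0.53. Their differences were -0.64 (SE 0.15) and -1.31 (SE 0.36), both with a limma adjusted p of 0.97.

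At 5 against 0.24 μg Se/g, 1 P450 gene rose and 3 fell. limma called 4 of 58 genes (6.9%), against 2.82% of all probe sets. One was higher, against 2.21% of all probe sets, and 3 were lower, against 0.609%. An unadjusted p under 0.05 was found for 19 genes (32.8%), against 14.7%, and for 20 genes (34.5%) the 3 rats on each diet did not overlap, against 23.6%, with 6 genes higher and 14 lower. Of all 58 genes, 38 had a negative and 20 a positive change, with a median of -0.10 against -0.03 for all probe sets.

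**Figure D3:**
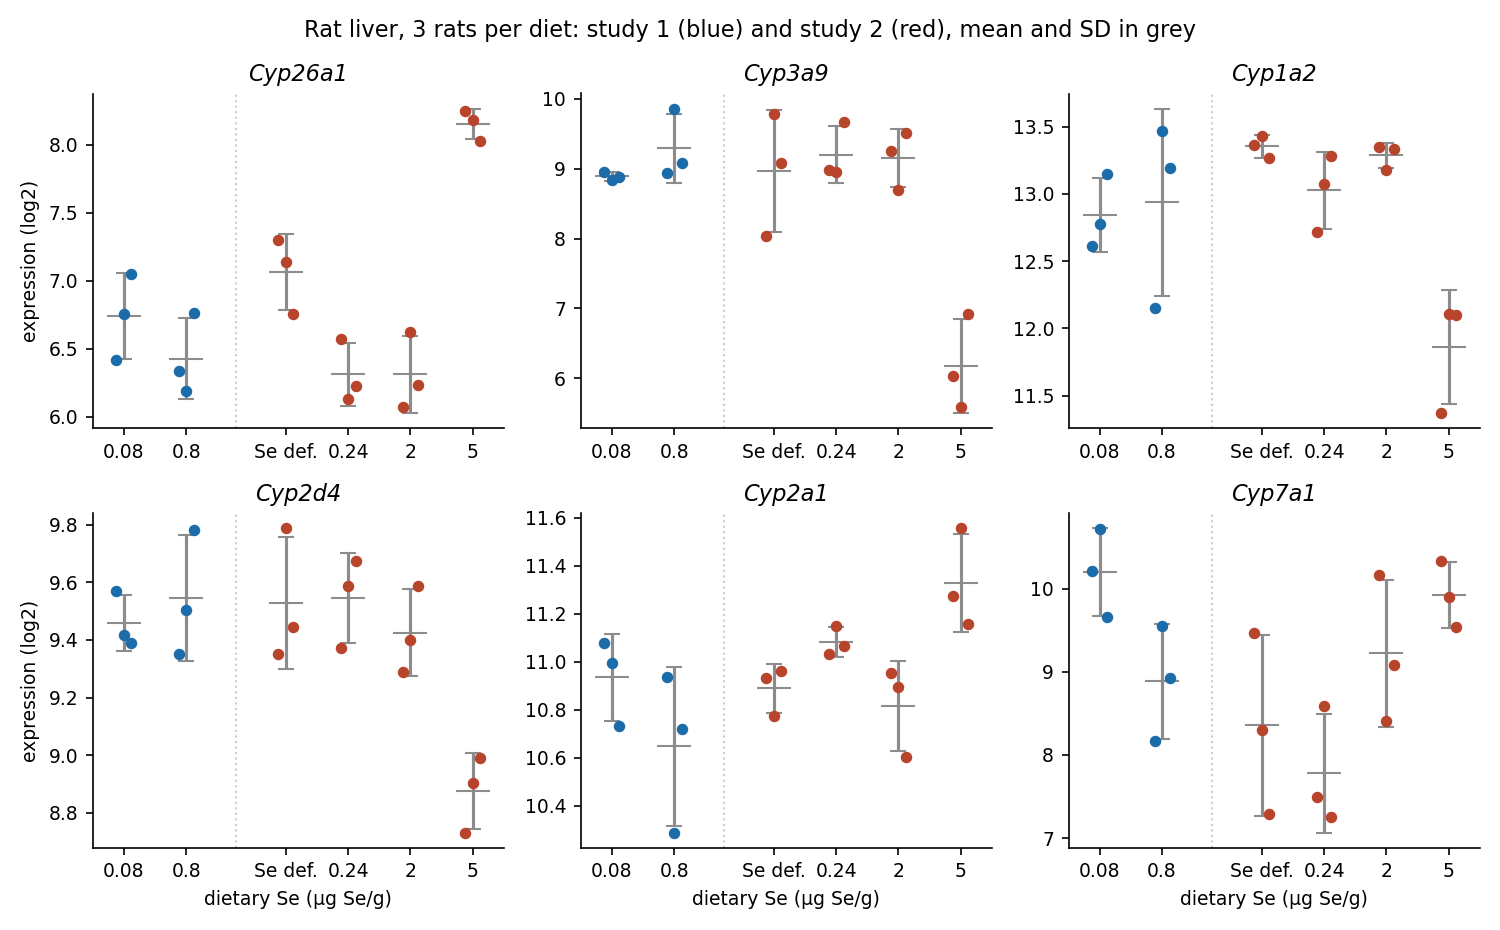
Log2 expression in each rat liver by dietary Se for the called genes Cyp26a1, Cyp3a9, Cyp1a2, Cyp2d4 and Cyp2a1 and for Cyp7a1, in study 1 (blue) and study 2 (red), with the mean and SD of the 3 rats in grey. The 3 rats on 5 μg Se/g lie above all others for Cyp26a1, from 8.03 to 8.24, and below all others for Cyp3a9, from 5.59 to 6.91, for Cyp1a2 and for Cyp2d4.

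Cyp26a1 was at 8.24, 8.18 and 8.03 on 5 μg Se/g and 6.57, 6.13 and 6.22 on 0.24 μg Se/g. No rat on another diet, in either study, was above 7.30. The 2 rat studies were processed separately per the paper's methods, so that levels are set side by side between them only as description. Cyp26a1 rose by 1.84 on the log2 scale (SE 0.18, limma adjusted p = 0.00046), or 3.58-fold. Cyp3a9, a member of the family that oxidizes steroids and many drugs, was at 6.03, 5.59 and 6.91 against 8.98, 8.95 and 9.67. It fell by 3.02 on the log2 scale (SE 0.43, limma adjusted p = 0.0038), or 8.13-fold, and no rat on another diet was below 8.04. The changes of the other CYP3 genes, Cyp3a18, Cyp3a23-3a1 and Cyp3a2, were -0.22, -0.21 and -0.20, and none was called.

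Cyp1a2 was at 11.37, 12.11 and 12.10 on 5 μg Se/g and 12.72, 13.08 and 13.29 on 0.24 μg Se/g. It fell by 1.17 (SE 0.19, limma adjusted p = 0.0078), or 2.25-fold, and no rat on another diet of study 2 was below 12.72, while 1 rat on 0.8 μg Se/g in study 1 was at 12.15. The other CYP1 genes did not pass the test, with Cyp1a1 at 0.70 and Cyp1b1 at 0.32. Cyp2d4 was at 8.73, 8.90 and 8.99 against 9.37, 9.59 and 9.68, a fall of 0.67 (SE 0.14, limma adjusted p = 0.023), or 1.59-fold. A second, dimmer Cyp2d4 probe set differed by -0.49 and was not called (limma adjusted p = 0.52). At 2 against 0.24 μg Se/g that probe set differed by 0.61, against -0.12 for the one used. The other CYP2D genes had smaller changes, -0.28 for Cyp2d3 and -0.22 for Cyp2d2, and were not called. The calls of Cyp26a1, Cyp3a9 and Cyp1a2 were also made with each of the 6 arrays left out in turn, but that of Cyp2d4 was lost without replicate 1 or 2 at 5 μg Se/g (limma adjusted p = 0.11 and 0.079) and without replicate 2 or 3 at 0.24 μg Se/g (0.086 and 0.092).

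**Figure D4:**
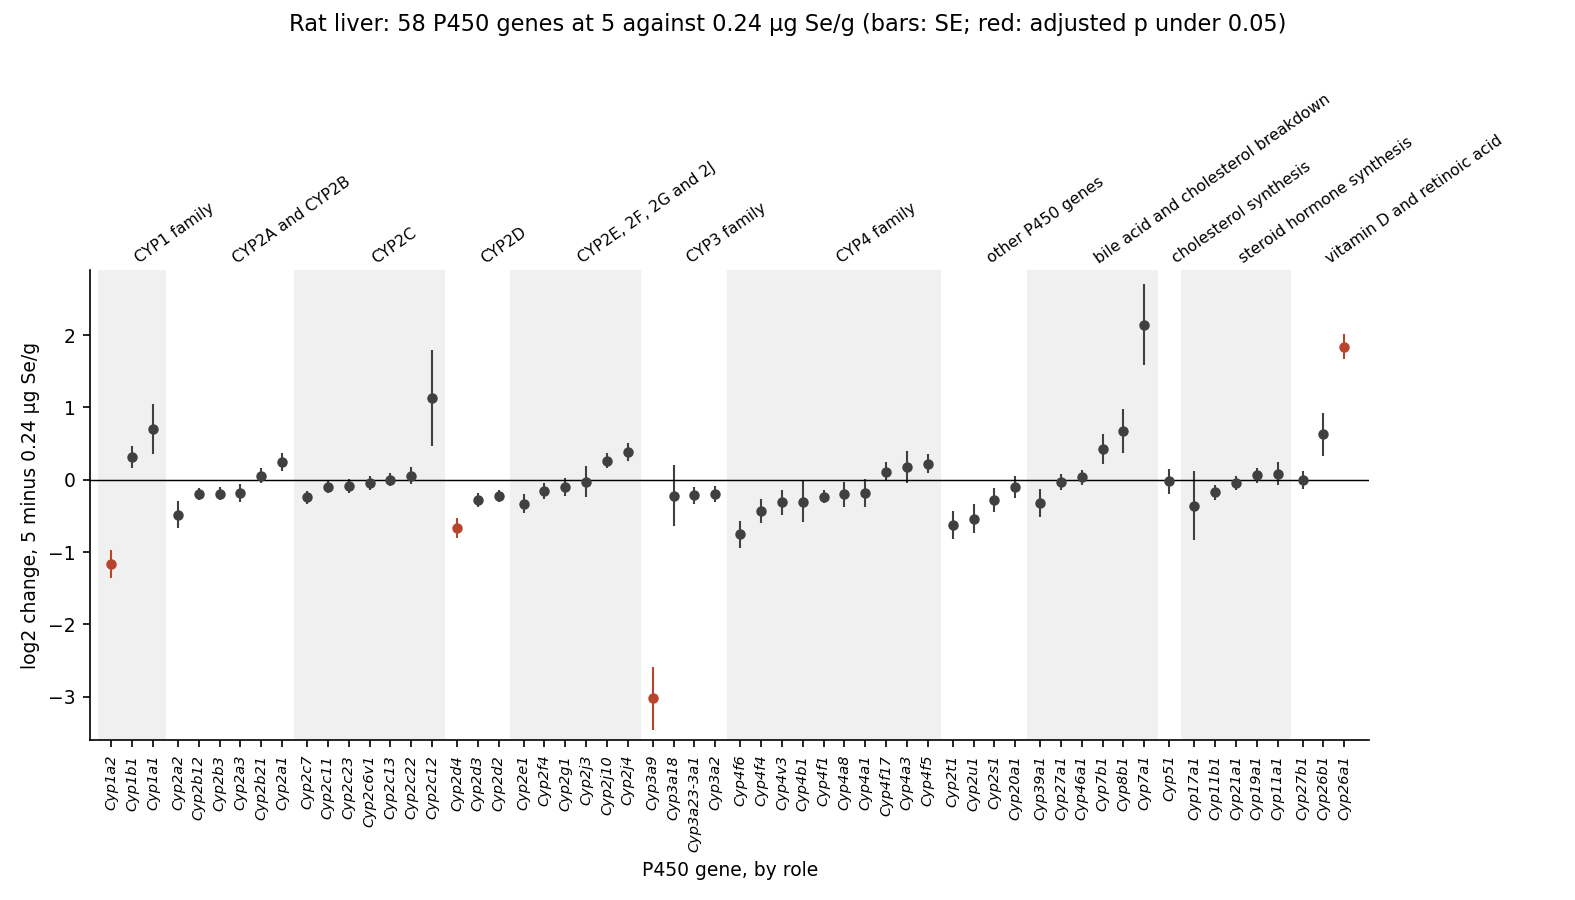
Log2 change of 58 P450 genes in rat liver at 5 against 0.24 μg Se/g (y axis), grouped by role (x axis), with bars of 1 SE and called genes in red. The called genes lie at 1.84 for Cyp26a1, -3.02 for Cyp3a9, -1.17 for Cyp1a2 and -0.67 for Cyp2d4, and Cyp7a1, not called, lies at 2.14 with an SE of 0.56.

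Several genes came near the threshold. Cyp7a1 was at 10.33, 9.89 and 9.54 on 5 μg Se/g and 7.49, 8.59 and 7.26 on 0.24 μg Se/g, without overlap, a difference of 2.14 (SE 0.56, limma adjusted p = 0.070). The level of Cyp7a1 was 9.22 ± 0.88 on 2 μg Se/g (SD, n = 3) and 10.20 ± 0.53 on 0.08 μg Se/g in study 1. With study 1 counted, the values on 5 μg Se/g lay within the range of the other diets. The studies were separate experiments, and the paper holds that gene changes between them were likely not due to Se. Cyp4f6 was at 10.30, 10.89 and 10.65 against 11.32, 11.43 and 11.36, a difference of -0.76 (SE 0.19, limma adjusted p = 0.061). Cyp2t1 differed by -0.62 (SE 0.19, limma adjusted p = 0.12). Without the array that stood apart, which was of neither diet, limma adjusted p was 0.036 for Cyp7a1 and 0.010 for Cyp4f6. Over all alternatives tried, Cyp7a1 passed in 5 and Cyp4f6 in 4. With each of the 6 arrays of these diets left out in turn, neither passed, with limma adjusted p from 0.070 to 0.24 for Cyp7a1 and from 0.069 to 0.24 for Cyp4f6.

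By role, the change was negative for 4 of 7 CYP2C genes, 3 of 3 CYP2D genes, 4 of 4 CYP3 genes and 4 of 6 CYP2A and CYP2B genes, with medians of -0.04, -0.28, -0.22 and -0.19, against -0.03 for all probe sets. It was negative for 1 of 3 CYP1 genes, with a median of 0.32, and for 7 of 10 genes of the fatty acid hydroxylases of family 4, with a median of -0.22. Cyp2e1 was at 13.48, 13.81 and 14.11 on 5 μg Se/g and 14.07, 14.11 and 14.20 on 0.24 μg Se/g, so that replicate 3 lay within the control range. Of the 6 bile acid and cholesterol breakdown genes, 4 had a positive change, with Cyp8b1 at 0.68 (SE 0.30) and 0 called. Of the 5 steroid hormone genes 0 were called, with changes from -0.36 to 0.08, and Cyp51 was at -0.02.

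Against 2 μg Se/g, with the same 3 rats on 5 μg Se/g, limma called 4 of 58 genes (6.9%), against 3.34% of all probe sets. The 2 higher genes stood against 2.13% of all probe sets, and the 2 lower against 1.21%. Cyp26a1 rose by 1.84 (SE 0.18, limma adjusted p = 0.0010), Cyp1a2 fell by 1.43 (SE 0.19, 0.0055) and Cyp3a9 fell by 2.98 (SE 0.43, 0.0080). Cyp2a1, a testosterone 7-hydroxylase, was at 11.27, 11.56 and 11.16 against 10.95, 10.89 and 10.60, a rise of 0.51 (SE 0.13, limma adjusted p = 0.0495). Cyp2d4 differed by -0.55 (SE 0.14, limma adjusted p = 0.051). A second, dimmer probe set of Cyp4v3 was called, at -1.07 (limma adjusted p = 0.030), while the one used was not, at -0.62 (0.071). The Cyp2a1 call was lost without replicate 1 or 2 at 5 μg Se/g (limma adjusted p = 0.14 and 0.17) and without replicate 1 or 2 at 2 μg Se/g (0.082 and 0.13). Without replicate 3 at 5 μg Se/g limma called 7 genes (12.1%), against 3.49% of all probe sets, and without replicate 3 at 2 μg Se/g it called 11 (19%), against 26.6%.

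Few genes of the proteins that P450 enzymes depend on were called. At 5 against 0.24 μg Se/g, 0 of 7 redox partner genes were called, with Pgrmc2 at -0.31 and Cyb5r3 at -0.27. Of 7 heme synthesis genes 0 were called, although all 7 had negative changes, with a median of -0.16 against -0.03 for all probe sets. Of 4 heme breakdown genes 0 were called, with Hmox1, heme oxygenase 1, at 9.79 ± 0.48 against 8.91 ± 0.31 (SD, n = 3; limma adjusted p = 0.10). Of 28 receptors and other regulators of P450 genes, 2 fell and 0 rose, against 0.609% of all probe sets that fell and 2.21% that rose. These were Nr1h3, the liver X receptor that senses oxysterols, by 0.51 (SE 0.10, limma adjusted p = 0.016), and Hlf, a circadian bZIP factor, by 0.50 (SE 0.11, limma adjusted p = 0.029). Against 2 μg Se/g, 1 of the 28 was called, Nr0b2, the corepressor SHP that acts on Cyp7a1, higher by 2.33 (SE 0.53, limma adjusted p = 0.039). In the mouse comparisons and in the other rat comparisons, limma called 0 genes of these 4 lists.

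Markers of other cell types and liver zones also moved at 5 against 0.24 μg Se/g, and in whole liver fewer cells of a type and less RNA per cell cannot be told apart. Of the hepatocyte markers 0 of 6 were called, and their summed level was 16.55 to 16.59 on 5 μg Se/g and 16.57 to 16.62 on 0.24 μg Se/g (log2). Genes other than P450 genes of the pericentral zone, where Cyp1a2 and Cyp2e1 are known to be expressed, summed to 14.35 to 14.92 against 15.09 to 15.22, without overlap, and 10 of 12 had negative changes. Gstm3 rose by 2.23 and Oat fell by 1.20. Of 12 periportal genes 1 fell, Aldh1b1 by 1.72, and the sums overlapped, at 16.15 to 16.29 against 16.17 to 16.28.

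Of 6 stellate cell or fibroblast markers, Col1a1 rose by 1.62 and Des by 0.93 while Lrat, which stores retinol as esters, fell by 2.11 (limma adjusted p = 0.037), with sums of 12.14 to 12.64 against 12.13 to 12.67. Of 3 bile duct markers Krt19 rose by 2.63, with sums of 9.84 to 12.01 against 8.36 to 11.55. Of 3 endothelial markers Pecam1 rose by 0.92, while 2 had negative changes, and the median change was -0.30. The endothelial sums were 11.60 to 12.01 against 11.79 to 12.13. Of 3 Kupffer cell or macrophage markers Clec4f fell by 1.78, while 2 had positive changes, and the median change was 0.005. The sums did not overlap, at 10.56 to 11.32 against 11.68 to 12.08, although the markers did not all move in the same direction. Of 2 lymphocyte and 2 red cell markers 0 were called, but the sums were higher on 5 μg Se/g without overlap, at 6.72 to 6.95 against 6.39 to 6.47 and at 12.99 to 13.55 against 11.47 to 12.56. The red cell sum was 12.26 to 13.43 in Se-deficient rats, which overlapped that on 5 μg Se/g. On 2 μg Se/g it was 10.79 to 12.77, which did not. Of 4 proximal tubule and 4 loop and duct markers, which are kidney genes read here in liver, 0 were called. Their sums were lower on 5 μg Se/g without overlap, at 8.27 to 8.38 against 8.44 to 8.69 and at 6.79 to 6.83 against 6.96 to 7.26. On 5 μg Se/g Umod was at 4.76 and Slc34a1 at 5.47, below the median of all probe sets (6.27), and Lrp2 at 7.67. The sums of the kidney genes thus hold dim signal and stand for no liver cell type. The lymphocyte sum was below that of the proximal tubule genes on both diets, so that it too may hold dim signal. The part of the marker shifts in the P450 changes was not tested.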

How the data were processed

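Liver and kidney RNA of mice (18 arrays) and liver RNA of rats (18 arrays) had been hybridized to 1-colour Affymetrix arrays. The values used are log2 expression per probe set as deposited by the authors, whose methods state that each study and tissue was processed separately. Their methods name RMA, and the submitters' processing notes GCRMA, with no version. Between mouse tissues, 1 probe set per gene was chosen over all 18 arrays. Probe sets were named from GEO's platform annotation, and array controls (64 mouse, 57 rat) were left out. limma 3.58.1 in R 4.3.3 fitted 1 coefficient per diet over the arrays of each tissue or study, with Benjamini-Hochberg adjustment over 45037 mouse and 31042 rat probe sets at 0.05, and was tested on simulated data. SE and p-values measure the spread between animals, whose number limits the precision. Rat diets were assigned to studies from the paper's text. P450 genes, other lists and tests were chosen with earlier results of these data known. Named were Cyp1a2 and Cyp3a9, in each comparison the called genes (at most 20) or, if under 3 were called, the 3 of smallest p, in each role the 2 of highest level, and in other lists the called genes or else the 2 of smallest p. Others, Cyp2b10 among them, were chosen after their values were seen. Replicate numbers were taken to pair the arrays where the deviations from the group means of each same-numbered pair correlated above 0.1. This held for Se-deficient against adequate mouse liver (r = 0.462, 0.105 and 0.319) and for no other comparison. Alternatives were other sample sets, robust trend, array weights, a filter at the median, quantile normalization, the block, other probe sets and leaving out each replicate. Rat promoter sequences were not used here. Python 3.11.15 and matplotlib 3.10.9 drew the figures.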

Additional observations from a re-analysis of the deposited data

How the results depend on the processing

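Counts of called P450 genes stayed at 0 under all alternatives for 0.05 against 0.2 μg Se/g in mouse liver, both kidney comparisons, the difference of responses, Se-deficient against 0.24 and 0.8 against 0.08 μg Se/g in rats. For Se-deficient mouse liver the count went from 0 to 1 with all mouse arrays in 1 fit (Cyp2c55; 0.0488% of all probe sets) and to 1 with the replicate block (Cyp2b10; 0.0355%). With array weights the counts were 11 (19%) for 2 against 0.24, 12 (20.7%) for 5 against 0.24 and 31 (53.4%) for 5 against 2 μg Se/g, against 42%, 10.3% and 48.2% of all probe sets. In some fits the estimation of these weights stopped before it converged. The replicate numbers did not pair the rat arrays, and the block gave 7 genes (12.1%) for 5 against 0.24 μg Se/g, against 2.52% of all; it changed no other count by over 1.5 times. For 5 against 2 μg Se/g, only the arrays of the 2 diets gave 1 gene (Cyp26a1), against 0.029% of all, and all rat arrays in 1 fit gave 9 (15.5%), against 7.71%. Leaving out 1 replicate gave 0 to 3 genes for 2 against 0.24, 3 to 6 for 5 against 0.24 and 3 to 11 for 5 against 2 μg Se/g, and 0 in the other comparisons. The cause was not tested. Of 481 values of single genes under alternatives, 452 kept their direction and side of the threshold, 14 lost and 15 gained a call, and 0 reversed. Without replicate 1 at 2 μg Se/g, 6 genes (10.3%) were called at 5 against 0.24 μg Se/g, against 3.85% of all (chosen after seeing the data). Quantile normalization over the mouse arrays gave 46 genes that differed between liver and kidney, against 45. The values used hold no detection calls, so that which dim genes were above background is not known here.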

Other observations

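Probe sets with several P450 symbols, left out above, cannot be assigned to 1 gene. The probe set of Cyp2a5 and Cyp2a4, coumarin and steroid hydroxylases, was at 14.04 ± 0.16 in Se-deficient and 13.15 ± 0.19 in Se-adequate mouse liver (SD, n = 3), a difference of 0.89 (SE 0.17, limma adjusted p = 0.38). On 0.05 μg Se/g it was at 12.68 ± 0.36, a difference from Se-adequate of -0.47 (SE 0.17), so that the levels did not follow the order of the diets. In kidney the same probe set was at 12.46 ± 0.28 and 12.15 ± 0.23, a difference of 0.31 (SE 0.17). The probe set of Cyp4a31 and Cyp4a10 was at 12.37 ± 0.21 against 12.74 ± 0.11 in liver. In rats at 5 against 0.24 μg Se/g, the probe set of Cyp2b2 and Cyp2b1 differed by -0.32 (SE 0.15), and limma called 0 of the 7 rat probe sets with several symbols.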
